A study of Mus musculus with 2 samples.

Results

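The interferon-stimulated genes are genes that cells transcribe after interferon binds its receptors. A fixed list of 41 symbols was looked up in the 19465 features of 2 spatial transcriptomics libraries, and 39 were found. Isg15 and Mx1 are not in the feature list used here. The 22 type II members are those that respond above all to interferon gamma, with guanylate-binding proteins, immunity-related GTPases and the machinery of antigen processing. The 17 type I members found are antiviral genes that respond to interferon alpha and beta, such as the Ifit and Oas genes. The list is one of known interferon targets, drawn up with earlier results of these data known.

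The samples were pancreatic tumors grown in the pancreas of mice from KPC cells, a mouse pancreatic cancer line derived from genetically engineered mice that carry Pdx-1-Cre. In 1 library the cells carried a lentiviral short hairpin against Zeb1 (KPC-shZEB1), and in the other the control vector (KPC-shV). The study's methods describe stable lines selected with puromycin or geneticin, without saying which was used for these cells. They name several mouse strains of 1 age range for the orthotopic models, without tying a strain to these tumors. The labels name no drug, whereas the study describes gemcitabine treatment for the tumors of its single-cell assay and used those same tissues here. The study lists 2 tumors per group, and which tumor each library covers is not stated in the sources used here.

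Interferon gamma is made mainly by activated T cells and natural killer cells, binds the Ifngr1 and Ifngr2 receptor and acts on genes with GAS sites. Irf1, itself a target, extends the response to the GTPases, the immunoproteasome and the peptide transporter that supplies MHC class I. Type I interferons are made by many cells after nucleic acid sensing, bind Ifnar1 and Ifnar2 and act through a complex with Stat2 and Irf9 that binds ISRE sites. The programs overlap, since Irf1 and other interferon regulatory factors also bind ISRE sites. In pancreatic tumors, antigen processing genes matter for recognition of tumor cells by CD8+ T cells.

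Each Visium CytAssist spot counts probes hybridized to RNA in a patch of tissue, often from more than 1 cell and cell type. Counts were unique molecular identifiers (UMIs), and a level is given as UMIs per 1000000 UMIs (CPM). The 2220 spots labelled KPC-shZEB1 held 140493626 UMIs, and the 3552 spots labelled KPC-shV held 172059528. Both sections held spots rich in acinar enzyme genes of the pancreas. Whether these spots are normal tissue was not checked, since images were not used. A spot was called acinar-rich where over 20% of its UMIs came from acinar enzyme genes, which was so for 763 (34.4%) and 255 (7.18%) spots, respectively. Because those UMIs enter the total, the log2 ratio, always taken as KPC-shZEB1 over KPC-shV, had a median of -0.48 over 15358 genes in all spots and -0.02 over 14370 genes outside acinar-rich spots. Levels are therefore given outside acinar-rich spots (1457 and 3297 spots), with the value over all spots beside them. With 1 library per group there was no replicate check, no test and no p-value. The 95% intervals of levels and ratios are exact and cover counting error only. Fewer cells of a type and less RNA per cell cannot be told apart in a spot, and levels of different genes cannot be compared because each has its own probes.

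Zeb1 itself was at 15.6 CPM in the library labelled KPC-shZEB1, against 12.7 CPM in that labelled KPC-shV outside acinar-rich spots (log2 ratio 0.29, interval 0.19 to 0.39). Over all spots it was at 10.8 and 12.4 CPM (log2 ratio -0.20). The value outside acinar-rich spots goes against the label, and tumor cells were not separated from other cells. Every direction below is therefore one between libraries as labelled.

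The type II members were higher in the library labelled KPC-shZEB1, and the type I members as a group were at about the same level in both. Summed over 22 genes, the type II level was 6540 CPM against 3331 CPM, a ratio of 1.96 (log2 0.97, interval 0.97 to 0.98). Summed over 17 genes, the type I level was 2093 CPM against 2065 CPM (log2 0.02, interval 0.01 to 0.03). Bst2 gave 752 and 818 CPM of these type I sums and Oasl2 328 and 308 CPM, so a type I sum leans on them. Over all spots the same sums gave log2 ratios of 0.35 and -0.53, while the median gene was at -0.48. Thus the type II sum lay above the median gene in both readings, and the type I sum lay close to it in both.

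All 39 members had at least 100 UMIs in both libraries outside acinar-rich spots. Of the 22 type II members, 18 were at least 1.5-fold higher in the library labelled KPC-shZEB1 and 0 were at least 1.5-fold lower. Of the 17 type I members, 2 were at least 1.5-fold higher (Ifit2 and Zbp1) and 1 was lower (Usp18). Among all 14370 genes, 11.2% were at least 1.5-fold higher and 6.42% at least 1.5-fold lower. The median log2 ratio was 0.95 for type II members and 0.02 for type I members. Over all spots, 6 type II members remained at least 1.5-fold higher, against 5.16% of all genes, and 1 type II (Nlrc5) and 6 type I members were at least 1.5-fold lower, against 39.1% of all genes.

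**Figure D1:**
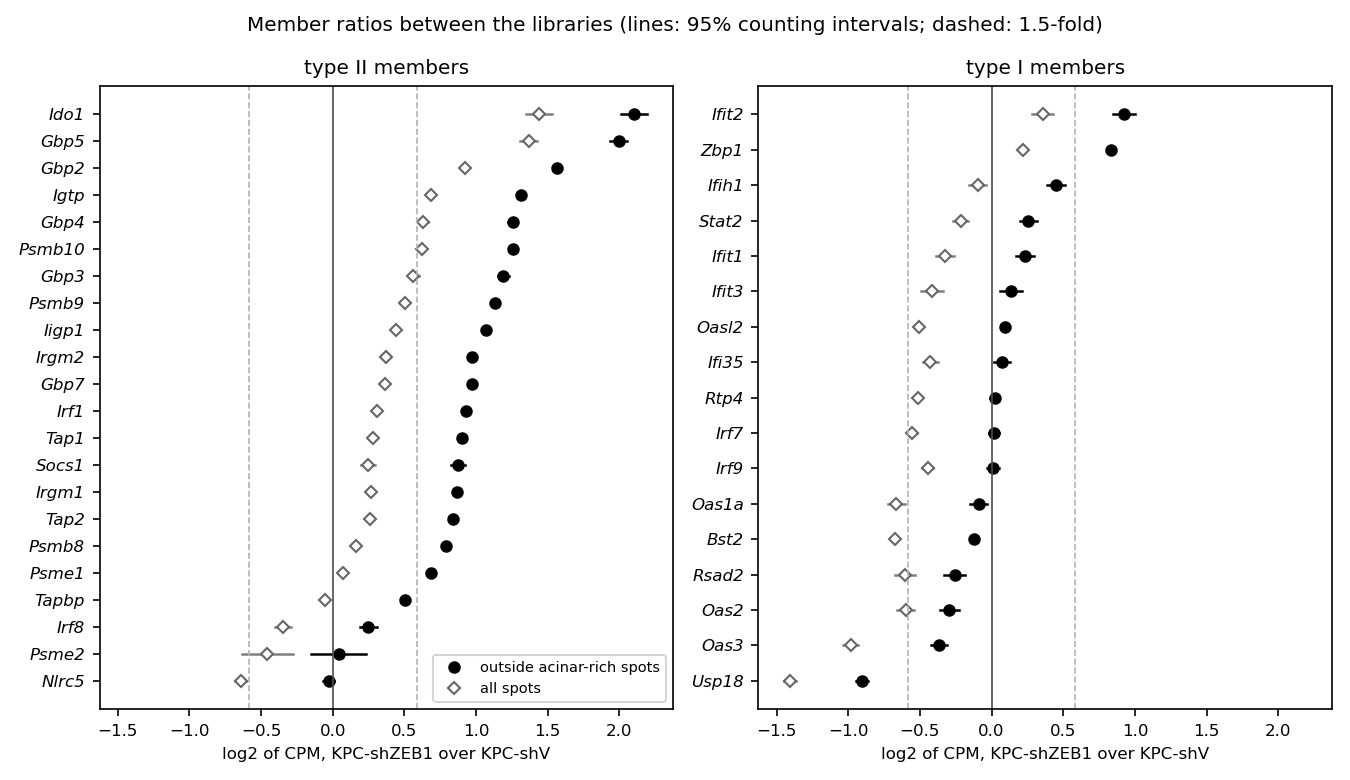
Log2 ratio of CPM, KPC-shZEB1 over KPC-shV, for each type II (left) and type I (right) member outside acinar-rich spots (filled circles) and over all spots (open diamonds). Horizontal lines are 95% counting intervals and dashed lines mark 1.5-fold. The 22 type II members run from -0.03 to 2.10 and the 17 type I members from -0.91 to 0.92 outside acinar-rich spots.

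The stretches upstream of the members at either end of this order are shown because the type II and type I programs differ in the sites their factors bind. RefSeq promoters (GRCm38.p6, 250 bases before the start of a transcript) matched 30 of 39 members. The motifs searched, on both strands, were the GAS core TTCNNNGAA and the ISRE core, GAAA and again GAAA with any 2 bases between, which can overlap each other. Of the 6 members with the highest ratio, Gbp5, Gbp2, Igtp and Psmb10 had a promoter in the table, and of the 6 with the lowest, Oas3, Rsad2, Bst2 and Oas1a had one. The last 150 bases before each start are printed 5′ to 3′ on the strand of the gene, with both motifs in capitals.
Gbp5 (chr3:142496784-142496933, plus strand): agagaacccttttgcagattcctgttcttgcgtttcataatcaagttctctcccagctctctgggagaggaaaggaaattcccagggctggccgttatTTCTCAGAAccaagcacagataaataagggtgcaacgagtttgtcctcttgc
Gbp2 (chr3:142620513-142620662, plus strand): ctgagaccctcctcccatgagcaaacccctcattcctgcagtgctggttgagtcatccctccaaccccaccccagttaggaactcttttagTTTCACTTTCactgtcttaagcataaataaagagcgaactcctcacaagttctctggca
Igtp (chr11:58199406-58199555, plus strand): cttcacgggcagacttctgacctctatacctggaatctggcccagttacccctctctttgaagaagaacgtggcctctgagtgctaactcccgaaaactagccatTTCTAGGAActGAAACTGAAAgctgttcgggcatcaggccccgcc
Psmb10 (chr8:105938393-105938542, minus strand): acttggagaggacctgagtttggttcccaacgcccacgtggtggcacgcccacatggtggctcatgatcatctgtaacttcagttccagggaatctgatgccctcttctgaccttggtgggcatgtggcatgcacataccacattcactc
Oas3 (chr5:120777660-120777809, minus strand): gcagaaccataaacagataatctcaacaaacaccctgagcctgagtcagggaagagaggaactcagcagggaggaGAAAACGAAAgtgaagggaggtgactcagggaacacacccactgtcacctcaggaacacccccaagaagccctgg
Rsad2 (chr12:26456453-26456602, minus strand): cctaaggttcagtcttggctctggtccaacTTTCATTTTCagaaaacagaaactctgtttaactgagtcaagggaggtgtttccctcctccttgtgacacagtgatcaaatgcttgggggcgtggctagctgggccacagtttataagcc
Bst2 (chr8:71537473-71537622, minus strand): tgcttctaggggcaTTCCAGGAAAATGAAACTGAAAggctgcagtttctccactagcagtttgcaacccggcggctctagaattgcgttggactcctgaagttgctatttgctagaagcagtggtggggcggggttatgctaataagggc
Oas1a (chr5:120907526-120907675, minus strand): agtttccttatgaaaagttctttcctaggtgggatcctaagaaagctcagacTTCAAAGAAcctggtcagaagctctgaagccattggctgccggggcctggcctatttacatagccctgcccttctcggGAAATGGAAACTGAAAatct
The GAS core stood 52 bases before the start in Gbp5 and 45 bases before it in Igtp, where an ISRE core followed at 34 bases. The ISRE core stood 59 bases before the start in Gbp2, 75 in Oas3 and 120 in Rsad2. Bst2 and Oas1a held a GAS core and a pair of overlapping ISRE cores each, and Psmb10 held neither in this window. Gbp5 had a further GAS core at 245 bases and an ISRE core at 165 bases, outside the printed stretch. Of the 21 type II promoters, 7 held a GAS core (33.3%) and 8 an ISRE core (38.1%). Of the 15 type I promoters, 3 held a GAS core (20%) and 7 an ISRE core (46.7%). Among all 32851 promoters the shares were 7.02% and 2.98%. A match of letters is not a bound site, and the members were listed for their interferon response.

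Among the GTPases, which attack vacuoles of intracellular pathogens and help set off cell death, the guanylate-binding proteins showed wide differences. Gbp5, at chr3:142493978-142522344, was at 78.2 CPM in the library labelled KPC-shZEB1, against 19.6 CPM in that labelled KPC-shV (log2 1.99, interval 1.93 to 2.06). Its neighbor Gbp2, at chr3:142620602-142638008, was at 721 and 244 CPM (log2 1.56). Gbp4, on chromosome 5, was at 218 and 91.4 CPM (log2 1.26), and Gbp3 and Gbp7, which lie between Gbp5 and Gbp2, had log2 ratios of 1.19 and 0.97. All 5 listed guanylate-binding proteins were thus higher in the same library. The immunity-related GTPases followed, with Igtp at 440 and 177 CPM (log2 1.32), Iigp1 at log2 1.07, Irgm2 at 0.97 and Irgm1 at 0.87. Igtp and Irgm2 overlap on chromosome 11 in GENCODE M21. The families are made of related genes whose probes may cross-hybridize, so the values of single genes are uncertain.

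Ido1, which degrades tryptophan and restrains T cells, had the highest ratio of the 39 members. It was at 36.1 CPM in the library labelled KPC-shZEB1, against 8.42 CPM in that labelled KPC-shV (log2 2.10, interval 2.01 to 2.19). Over all spots its levels were 22.0 and 8.11 CPM (log2 1.44).

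Genes of MHC class I antigen processing were higher outside acinar-rich spots with few exceptions. Psmb10, Psmb9 and Psmb8, the catalytic subunits of the immunoproteasome, had log2 ratios of 1.25, 1.13 and 0.79. Tap1 and Tap2, which form the peptide transporter, had log2 ratios of 0.90 and 0.84. The levels of Tap1 were 304 and 162 CPM, and those of Psmb8 were 706 and 408 CPM. Psme1, a subunit of the proteasome activator, was at 868 and 540 CPM (log2 0.68). Tapbp, the chaperone that bridges the transporter and MHC class I, stayed under 1.5-fold at 257 and 181 CPM (log2 0.51). Over all spots the log2 ratios were smaller, at 0.62, 0.50 and 0.16 for Psmb10, Psmb9 and Psmb8. They were 0.28 for Tap1, 0.26 for Tap2, 0.07 for Psme1 and -0.06 for Tapbp, where the median gene was at -0.48. Nlrc5, the transactivator of MHC class I genes, was at 96.9 and 98.7 CPM (log2 -0.03, interval -0.07 to 0.01), so its counting interval held 0. Psme2, the partner of Psme1, was at 4.12 and 3.99 CPM, near the 0.563 to 2.46 CPM of 8 genes of retina, sperm and neurons not expected in this tissue, and its ratio is not read here. Psmb9, Tap1, Psmb8 and Tap2 lie side by side, Psmb9 and Tap1 overlapping at their ends, at chr17:34181987-34216321.

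Irf1, the transcription factor that carries much of the interferon gamma response, was at 328 and 172 CPM (log2 0.93). Socs1, the feedback inhibitor of the receptor kinases, was at 76.2 and 41.6 CPM (log2 0.87). Irf8, a factor of macrophages, dendritic cells and B cells as well as an interferon target, was at 45.1 and 37.9 CPM (log2 0.25), and at log2 -0.35 over all spots. The direction of Irf8 and Tapbp turned between the readings, while 18 type II members were higher in both. The median gene was at -0.02 outside acinar-rich spots and at -0.48 over all spots. Neither Psme2, near background, nor Nlrc5, whose interval held 0 outside acinar-rich spots, is given a direction.

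The type I members had no common direction. Usp18, a protease that removes Isg15 from proteins and blocks the type I receptor, was at 63.9 CPM in the library labelled KPC-shZEB1, against 120 CPM in that labelled KPC-shV (log2 -0.91, interval -0.95 to -0.86). Oas3, Oas2 and Oas1a, which sense double-stranded RNA, had log2 ratios of -0.36, -0.30 and -0.09. Rsad2, which makes an antiviral nucleotide, was at 25.1 and 30.0 CPM (log2 -0.26), and Bst2, which tethers viruses to the membrane, was at 752 and 818 CPM (log2 -0.12). These 6 were below 0 in both readings. In the other direction, Ifit2, which binds viral RNA, was at 33.2 and 17.5 CPM (log2 0.92), and Zbp1, a sensor of Z-form nucleic acids, was at 249 and 140 CPM (log2 0.83). The other 9, Stat2, Irf7, Irf9, Ifit1, Ifit3, Oasl2, Ifi35, Rtp4 and Ifih1, lay between 0.01 and 0.45 outside acinar-rich spots and below 0 over all spots. The median gene was at -0.02 and -0.48 in these readings, respectively. Neither this turn nor a value below 0 in both readings is therefore read as a trait of these genes.

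The other genes of the pathway were read from lists drawn up for this purpose. Of the ligands, Ifng was at 5.40 CPM in the library labelled KPC-shZEB1, against 2.02 CPM in that labelled KPC-shV (log2 1.42, interval 1.22 to 1.63). The second value lay next to the highest gene not expected in the tissue, which was at 1.99 CPM in that library, so the size of the Ifng ratio is limited by background. The 6 other ligands found, of the alpha, epsilon and lambda classes, were at 0.457 to 2.04 CPM, the range of the genes not expected in the tissue, and Ifnb1 is not in the feature list used. Of the receptor genes, Ifnlr1 was at least 1.5-fold lower at 2.39 and 3.66 CPM, near the same background. Ifngr1 and Ifngr2 had log2 ratios of 0.27 and 0.39, and Ifnar1 and Ifnar2 had 0.05 and 0.06. The receptor kinase genes Jak1, Jak2 and Tyk2 had log2 ratios of -0.06, 0.16 and -0.08. Of 13 further type II induced genes, 11 were at least 1.5-fold higher, against 11.2% of all genes, with a median log2 ratio of 1.23. They included the chemokine gene Cxcl9 (986 and 325 CPM) and Ciita, the transactivator of MHC class II (83.5 and 35.5 CPM), whereas Cd274, which encodes PD-L1, stayed under 1.5-fold (log2 0.53). Of 13 further type I induced genes, 2 were at least 1.5-fold higher, Parp14 (log2 0.80) and Herc6 (log2 0.60), and the median was 0.12. Of 10 nucleic acid sensing genes 3 were at least 1.5-fold higher, the highest being Tlr9 (log2 0.91), and of 5 brakes 1 was, Ptpn6 (log2 0.74). Counts such as 2 of 13 and 1 of 5 are near the 11.2% of all genes and are not read as a result.

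The difference in type II level ran through most spots. The median spot outside acinar-rich spots held 6046 CPM of type II members in the library labelled KPC-shZEB1, against 2585 CPM in that labelled KPC-shV. In the former, 84.2% of 1457 spots (exact binomial interval 82.2% to 86.1%) lay above the median spot of the latter. For type I members the medians were 1840 and 1767 CPM and the share was 52.6% (49.97% to 55.2%). The distributions overlapped for both groups of genes, and neighboring spots of 1 section are not replicates. The binomial intervals treat spots as independent and the KPC-shV median as fixed, so they do not measure the spread between tumors. In acinar-rich spots the type II level was low in both libraries, at 383 and 580 CPM, and the type I level was 287 and 421 CPM. There the acinar genes took 61.3% and 41.1% of the UMIs, respectively, and the part of this gap in those levels was not tested.

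**Figure D2:**
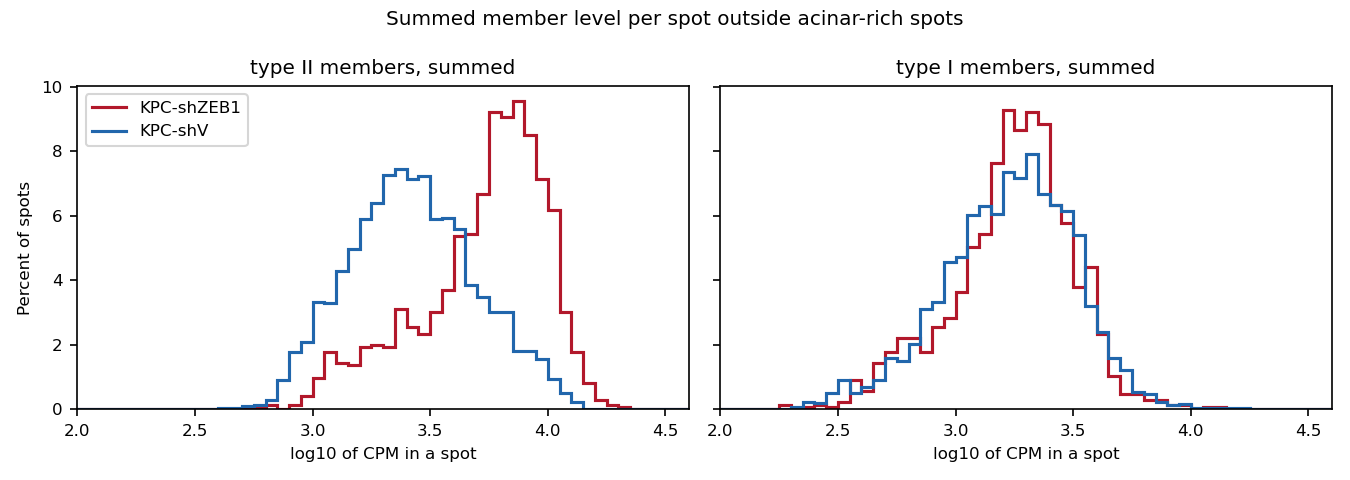
Percent of spots outside acinar-rich spots at each summed member level, on a log10 scale of CPM, for type II (left) and type I (right) members, with 1457 spots labelled KPC-shZEB1 in red and 3297 spots labelled KPC-shV in blue. The type II distribution of KPC-shZEB1 lies to the right of that of KPC-shV, with medians of 6046 and 2585 CPM, and the type I distributions nearly coincide.

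T cell genes differed between the libraries in the same direction. Summed over 15 genes they were at 279 and 113 CPM (log2 1.31). Within the list, Cd3e was at 31.3 and 5.77 CPM and Cd8a at 8.30 and 1.67 CPM. The second Cd8a value lay within the 0.761 to 1.99 CPM of the genes not expected in the tissue in that library. The size of its ratio is thus limited by background. In contrast, Trbc1, a constant segment of the T cell receptor beta chain, was at 30.1 and 60.6 CPM. It thus held much of the sum of 113 CPM, and the summed ratio lay below the median ratio. Trbc1 was thus the single gene of the 15 that was lower in the library labelled KPC-shZEB1. It also correlated weakly or negatively with the type II level over spots, at r = -0.28 in 1457 spots labelled KPC-shZEB1 and 0.06 in 3297 spots labelled KPC-shV, against 0.32 and 0.30 for Cd3e. Most readings by T cell class are therefore given both with all 15 genes and without Trbc1, the second chosen after seeing the data. That choice rested partly on the correlation with the type II level, so a wider type II step without Trbc1 is not read as a result.

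Spots were thinned to 20000 UMIs, leaving 52 and 628 spots below that depth aside, and sorted into those with 0 (T-free), 1 to 2, 3 to 5 and at least 6 (T-rich) T cell UMIs. With all 15 genes there were 111, 321, 436 and 537 such spots labelled KPC-shZEB1, and 809, 991, 564 and 305 labelled KPC-shV. The type II level was higher with more T cell UMIs in both libraries. It went from 4614 CPM in T-free spots to 7462 CPM in T-rich spots in the library labelled KPC-shZEB1 (log2 0.69). In the library labelled KPC-shV it went from 2789 to 4665 CPM (log2 0.74). Without Trbc1 the steps were steeper, from 4186 to 7830 CPM (log2 0.90) and from 2751 to 7039 CPM (log2 1.36). Thus the T-rich spots came close together in level once Trbc1 was left out.

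Within each class of spots the libraries still differed in type II level, by an amount that depended on Trbc1. The classes did not hold equal T cell content. With all 15 genes, those genes were at 46.7 CPM in T-free spots labelled KPC-shZEB1 and 26.7 CPM in T-free spots labelled KPC-shV, and at 503 and 362 CPM in T-rich spots. Without Trbc1 the remaining genes were at 38.6 and 16.0 CPM in T-free spots and 490.3 and 369 CPM in T-rich spots. The library labelled KPC-shZEB1 was the higher one in all 4 classes of both readings, and the part of this gap in the ratios that follow was not tested. With all 15 genes the log2 ratio between the libraries was 0.73, 0.78, 0.87 and 0.68 from the T-free to the T-rich class. With both libraries given the same mix of the classes it was 0.77, where the same spots without this weighting gave 0.97. Without Trbc1 the ratios were 0.61, 0.64, 0.43 and 0.15, and the weighted one was 0.48. The last class then rested on 468 and 111 spots. With Cd3d, Cd3e and Cd3g alone the weighted ratio was 0.67, and the ratio went from 0.82 in the lowest class to 0.35 in the highest.

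**Figure D3:**
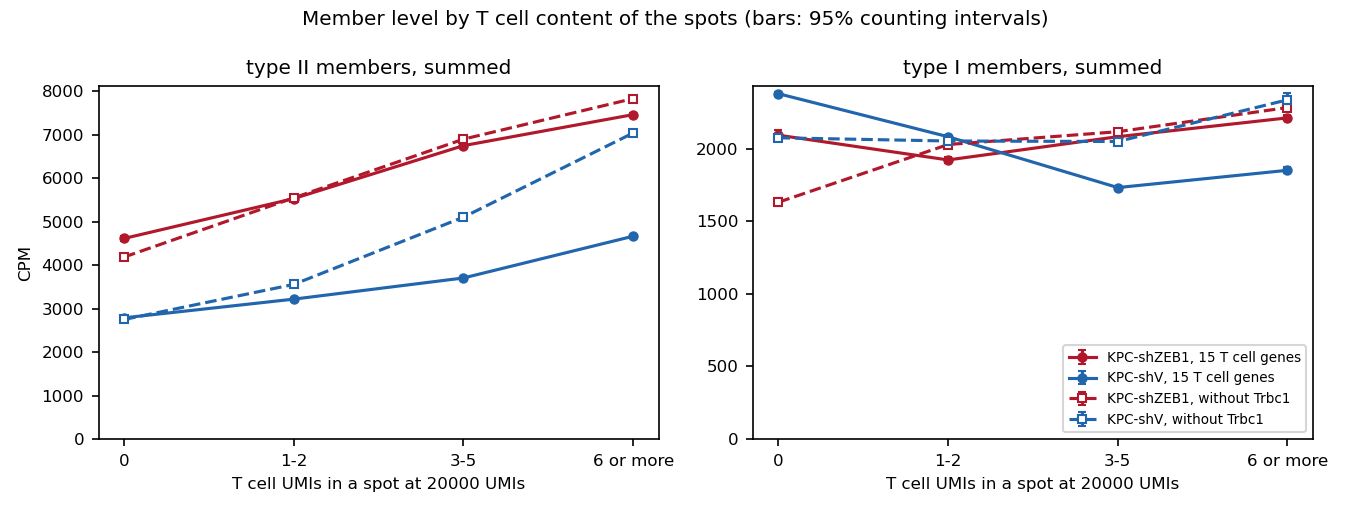
Summed CPM of type II (left) and type I (right) members in spots with 0, 1 to 2, 3 to 5 and at least 6 T cell UMIs after thinning to 20000 UMIs, in KPC-shZEB1 (red) and KPC-shV (blue), classed with all 15 T cell genes (solid lines) and without Trbc1 (dashed lines). Bars are 95% counting intervals. Type II levels are higher with more T cell UMIs in all 4 lines, and without Trbc1 they reach 7830 and 7039 CPM in the last class.

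Counts of members gave the same picture. In T-free spots, 15 of 21 type II members were, with all 15 T cell genes, at least 1.5-fold higher in the library labelled KPC-shZEB1, against 7.44% of all genes, and 11 of 21 without Trbc1, against 7.98%. Psme2 had under 100 UMIs there. In T-rich spots, 12 of 21 were at least 1.5-fold higher with all 15 genes, against 6.1% of all genes. Without Trbc1 1 of 20, Tap1 (log2 0.60), was, against 2.97%, and Irf8 was at least 1.5-fold lower (log2 -0.87). No share of all genes at least 1.5-fold lower was taken for that class, so the Irf8 call is not read as a result. Psme2 and Ido1 had under 100 UMIs in that class.

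Members differed in how far they followed T cell content. Without Trbc1, 19 of 21 type II members were at least 1.5-fold higher in T-rich than in T-free spots of the library labelled KPC-shZEB1, against 8.1% of all genes, and 18 of 20 in the library labelled KPC-shV, against 18.2%. With all 15 genes the counts were 12 of 21, against 6.82%, and 15 of 21, against 11.7%. Gbp5 differed by log2 1.93 and 3.12 between the classes without Trbc1, and Irf8 by 1.89 and 2.47. Ido1 was at 31.6 CPM in T-rich and 26.9 CPM in T-free spots of the library labelled KPC-shZEB1 (log2 0.23), so that it hardly followed T cell content there. In T-free spots of the library labelled KPC-shV it was at 6.76 CPM.

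The type I level had no stable relation to T cell content. In the library labelled KPC-shZEB1 it was 2092 CPM in T-free and 2211 CPM in T-rich spots with all 15 genes, and 1631 and 2282 CPM without Trbc1. In the library labelled KPC-shV it was 2377 and 1850 CPM with all 15 genes, and 2074 and 2336 CPM without Trbc1, so that the direction turned. Rsad2 was lower in T-rich than in T-free spots of the library labelled KPC-shZEB1 in both readings, by log2 -2.54 and -1.52. Over spots outside acinar-rich ones of that library, however, its r with the 15 T cell genes was only -0.07. With another random draw the type I level in T-free spots of that library was 1758 CPM, so levels in this small class are uncertain.

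Other cell types moved with T cell content. Without Trbc1, the summed macrophage list of 8 genes, C1qa among them, was at 1558 CPM in T-free and 3869 CPM in T-rich spots of the library labelled KPC-shZEB1, and at 1116 and 5136 CPM in the library labelled KPC-shV. The fibroblast list of 7 genes, with Col1a1, was at 5880 and 11228 CPM, and at 3681 and 18551 CPM. The tumor epithelium list of 5 genes, with Epcam, was lower in T-rich spots, at 6833 and 4138 CPM, and at 7034 and 3115 CPM. With Trbc1 included, macrophage genes were at 1658 and 3728 CPM in the library labelled KPC-shZEB1, and 1054 and 3084 CPM in that labelled KPC-shV. Fibroblast genes were at 6208 and 11165 CPM, and at 3780 and 10340 CPM. Tumor epithelium genes were at 7202 and 4343 CPM, and at 6874 and 5574.5 CPM. Each list thus moved the same way in both readings. The order of the libraries in T-rich spots turned for each list, so it is not read as a result. Between the libraries, macrophage genes were higher in KPC-shZEB1 by log2 0.62 outside acinar-rich spots, with 8 of 8 genes above 0. Over all spots their sum was at log2 0.04, with 5 genes above 0 and 3 below. Neutrophil genes were lower outside acinar-rich spots (log2 -1.24) and over all spots (log2 -1.85), with 6 of 6 genes below 0. No share of all genes on 1 side of 0 was taken, so these counts are not read as a result. Genes of NK cells, a source of interferon gamma, summed to 14.3 and 7.35 CPM (log2 0.96), with Klre1 at 7.10 and 1.66 CPM but Eomes at 2.24 and 3.37 CPM. The second Klre1 value and the first Eomes value lay within the range of the genes not expected in the tissue. The lists of plasma cells (174 and 12.0 CPM, log2 3.86), B cells (42.3 and 12.5 CPM, log2 1.76) and dendritic cells (51.1 and 22.6 CPM, log2 1.18) were higher as well. The part of these cells in the member levels was not tested.

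The type II difference was wider where epithelial genes were high and where fibroblast genes were low, a reading chosen after seeing the data. Spots of both libraries with at least 20000 UMIs were put in quintiles of a list's CPM. In the lowest quintile of tumor epithelium genes, with 454 and 361 spots, the type II level was 5454 CPM in the library labelled KPC-shZEB1, against 3903 CPM in that labelled KPC-shV (log2 0.48). In the highest quintile, with 338 and 477 spots, it was 7602 and 2759 CPM (log2 1.46). The level thus went up with epithelial genes in the former library and down in the latter. By fibroblast genes the order was the reverse, with a log2 ratio of 1.45 in the lowest quintile (7768 and 2847 CPM) and 0.20 in the highest (4627 and 4027 CPM). By neutrophil genes the ratio was 0.76 in the lowest quintile (5227 and 3090 CPM) and 1.55 in the highest (7647 and 2610 CPM), which held 92 and 723 spots. By endothelium genes it was 1.39 in the lowest and 0.38 in the highest quintile, and by macrophage genes 0.91 and 0.42. The narrowing was thus not particular to fibroblast genes. By T cell genes, Trbc1 included, the ratio was 0.61 and 0.74, and by hypoxia genes 0.88 and 0.89. T cell quintiles were not taken without Trbc1. Over T cell classes the ratio narrowed from 0.61 to 0.15 without Trbc1, and from 0.82 to 0.35 with Cd3d, Cd3e and Cd3g alone.

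In the highest quintile of tumor epithelium genes, 20 of 21 type II members were at least 1.5-fold higher in the library labelled KPC-shZEB1, against 9.8% of all genes, the exception being Nlrc5. In the lowest quintile 8 of 20 were, against 2.86% of all genes, Psme2 and Ido1 having under 100 UMIs. Ido1 was at 75.9 and 7.77 CPM in the highest quintile (log2 3.29), and at 4.41 and 2.91 CPM in the lowest. Gbp2 was at 890 and 167 CPM in the highest and 529 and 281 CPM in the lowest. Of 17 type I members 7 were at least 1.5-fold higher in the highest quintile, Ifit2 the most (log2 1.71), and 1 in the lowest, Zbp1 (log2 0.59). As sums, the type I members had log2 ratios of 0.24 and 0.04 in these quintiles. Bst2, the largest part of the sum, was at 901 and 891 CPM in the highest quintile (log2 0.02).

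**Figure D4:**
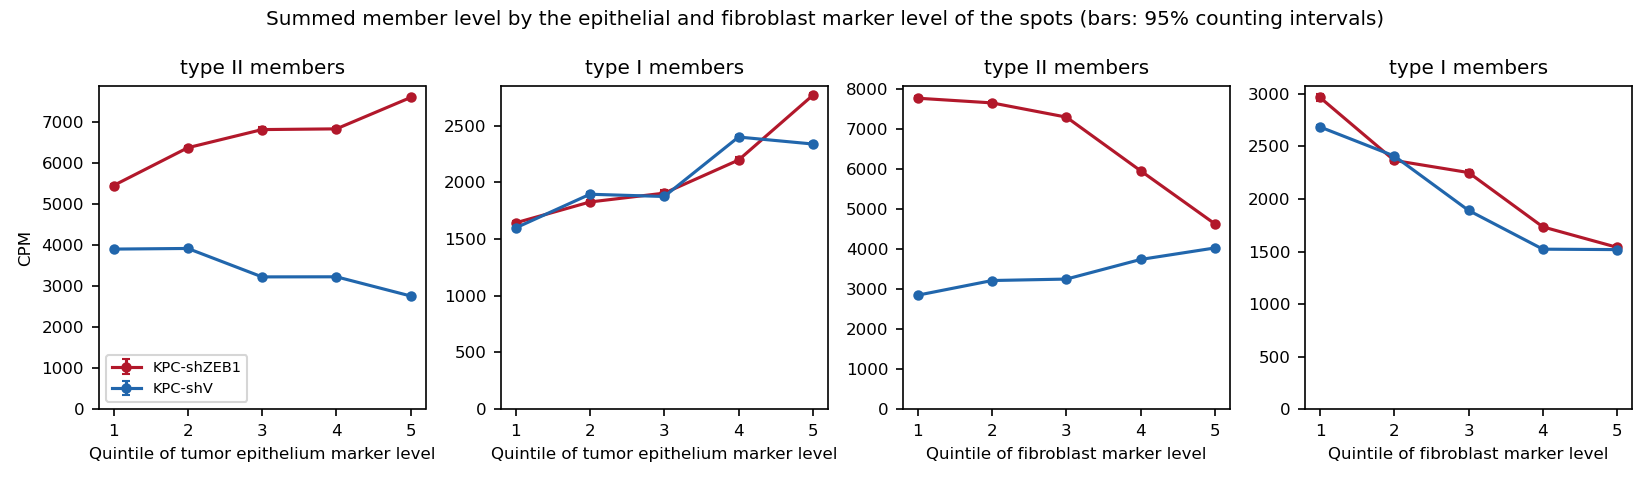
Summed CPM of type II and type I members in quintiles of the tumor epithelium marker level (left pair) and the fibroblast marker level (right pair) of the spots, from lowest (1) to highest (5), in KPC-shZEB1 (red) and KPC-shV (blue), with 95% counting intervals. The type II lines spread apart toward epithelial-rich spots (7602 and 2759 CPM) and come together toward fibroblast-rich spots (4627 and 4027 CPM), while the type I lines stay close.

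The type I level was also higher where epithelial genes were high, in both libraries. It was 1644 CPM in the lowest and 2770 CPM in the highest quintile of the library labelled KPC-shZEB1, and 1599 and 2339 CPM in the library labelled KPC-shV. By a list of 7 hypoxia genes, including Slc2a1, the type II level was lower in the highest than in the lowest quintile of both, at 4085 against 6304 CPM and 2211 against 3414 CPM. The type I level went the other way, at 2373 against 1407 CPM in the library labelled KPC-shV. In the library labelled KPC-shZEB1 it did so by less, at 2197 against 1970 CPM. Hypoxia genes themselves were lower in the library labelled KPC-shZEB1 (log2 -1.37), and at an equal mix of hypoxia quintiles the type II log2 ratio was 0.83. With macrophage genes so weighted it was 0.77 and with neutrophil genes 1.03.

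Over spots, members varied with their own group more than with the other. The correlations that follow are Pearson r of log-transformed CPM over 1457 and 3297 spots outside acinar-rich spots, which share a library and differ in depth, and are given as a description. Of 22 type II members, 21 correlated more strongly with the sum of the other type II members than with the type I sum in both libraries, the exception being Psme2. Of 17 type I members, 15 in the library labelled KPC-shZEB1 did so with their own group, against 14 in that labelled KPC-shV. Zbp1 was nearer to the type II sum in both, with r = 0.79 and 0.64. Gbp2 stood near the center of its group (r = 0.91 and 0.79), as did Oasl2 in the type I group (r = 0.83 and 0.74). The sums of the 2 groups correlated at r = 0.79 in the library labelled KPC-shZEB1, against 0.50 in that labelled KPC-shV.

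**Figure D5:**
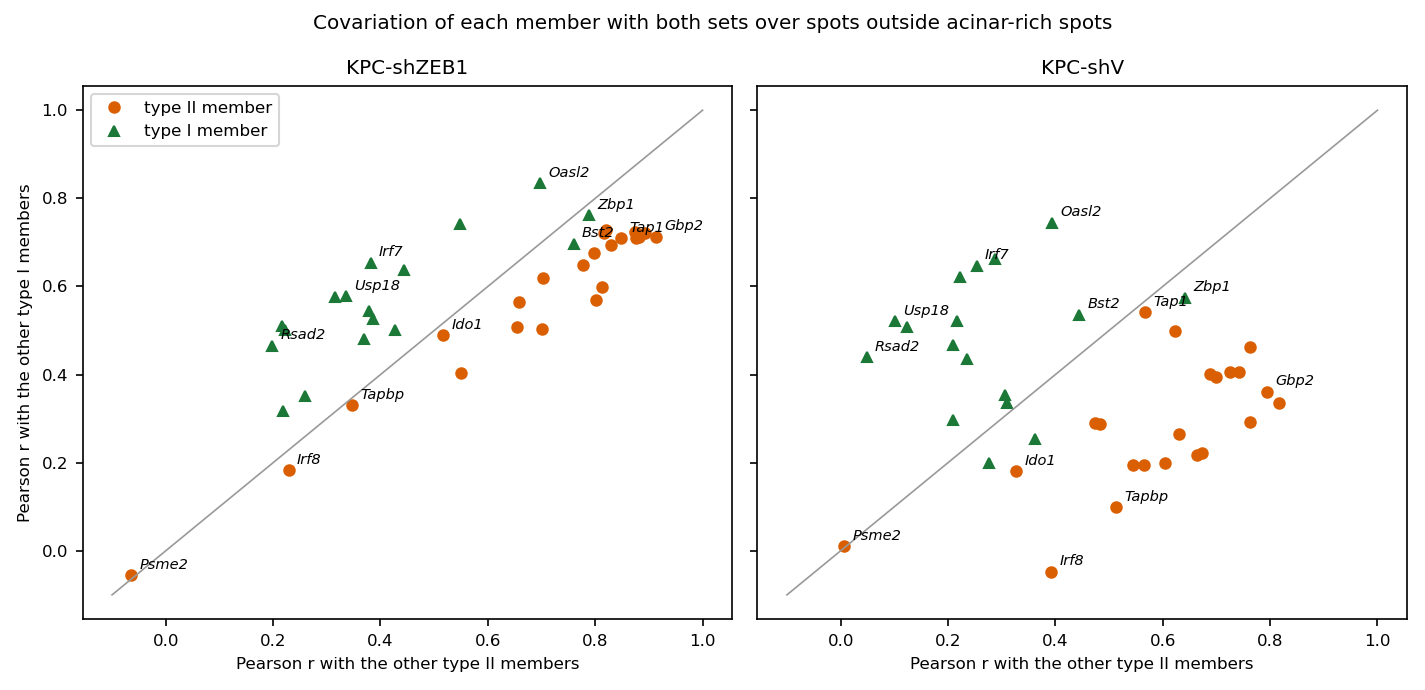
Pearson r of each member with the summed other type II members (horizontal) and the summed other type I members (vertical) over spots outside acinar-rich spots of KPC-shZEB1 (left) and KPC-shV (right). Circles are type II members, triangles type I members, and the gray line marks equal r. Points of the groups fall on opposite sides of the line with the exception of Psme2, Zbp1, Bst2, Stat2 and Ifi35 in at least 1 panel.

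Some members followed 1 or more of the cell type and hypoxia lists as well. Irf8 correlated with macrophage genes at r = 0.54 and 0.56, and Tapbp at 0.54 and 0.59. Neither was particular to that list. With T cell genes Irf8 was at 0.53 and 0.41, and Tapbp at 0.52 and 0.36. With fibroblast genes Irf8 was at 0.34 and 0.50, and Tapbp at 0.33 and 0.57. Ido1 correlated with tumor epithelium genes at r = 0.47 in the library labelled KPC-shZEB1, against 0.11 in that labelled KPC-shV. Usp18 correlated with tumor epithelium genes at r = 0.28 and 0.40, with hypoxia genes at 0.17 and 0.37 and with fibroblast genes at -0.33 and -0.47. The type II sum correlated with neutrophil genes at 0.30 and -0.25 and with fibroblast genes at -0.32 and 0.24, opposite in sign between the libraries.

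Among 9268 other genes with at least 1000 UMIs in each library, those most like the type II sum by the lower r of the libraries included Cxcl9 (0.86 and 0.79), Ifi47 (0.87 and 0.78), Gbp6 (0.82 and 0.75) and Gm4951 (0.80 and 0.71). The median gene was at 0.02 and 0.04. The 5 most like the type I sum were B2m (0.67 and 0.63), Ifi44 (0.65 and 0.60), Parp14 (0.77 and 0.54), Rnf213 (0.72 and 0.52) and Phf11d (0.54 and 0.51). The likeness of the type I set was thus weaker. Barcodes of 1718 spots are shared by the libraries, since a barcode marks a position on the slide, and positions were not used.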

How the data were processed

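Per the labels and the study's methods, the authors hybridized Visium CytAssist probes to frozen, methanol-fixed tumor sections, ran Space Ranger 2.0.1 against mm10 and kept spots lying over tissue. The deposited values are UMI counts, not normalized. From these counts, CPM and log2 ratios were computed per member and summed list, outside acinar-rich spots (over 20% of UMIs from 23 acinar genes found) and over all spots, with exact Poisson and exact conditional binomial 95% intervals for counting error. Genes needed at least 100 UMIs in both libraries. Spots outside acinar-rich ones held 85295915 and 165474205 UMIs, so that 1 CPM was at least 85.3 UMIs. Spots were thinned to 20000 UMIs for T cell classes. Correlations used log(1 + UMIs per 10000). The tools were numpy 2.4.6 and scipy 1.17.1 in Python 3.11.15, with figures from matplotlib 3.10.9, and the computation was tested on simulated data. Named genes were the 6 members at either end of the ratio order, members whose direction turned, ligands, receptors and kinases, and the 5 genes most like each group, and those of other lists or classes were named after their values were seen. The members and lists were chosen with earlier results of these data known. Doublets were not called, since spots are regions. Positions and images were not used. Some items that these rules name are not reported here.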

Additional observations from a re-analysis of the deposited data

How the results depend on the processing

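The type II log2 ratio outside acinar-rich spots was 0.97. It was 0.35 over all spots, 0.73 over all spots with acinar genes out of the total, 0.98 and 0.95 with over 5% and over 40% acinar UMIs left out, 0.99 with median-of-ratios scaling, 0.94 when spot CPM values were averaged and 1.03 without the top 5% of spots by level. In the same order the type I ratio was -0.53, -0.15, 0.02, 0.0037, 0.0349, 0.0006 and 0.0673, and it was 0.0591 as the mean over its genes. Members at least 1.5-fold higher numbered 6 over all spots, and members at least 1.5-fold lower 7, or 2 with acinar genes out of the total. By T cell content, the type II ratio at an equal mix of classes, and T-rich over T-free in KPC-shZEB1 and in KPC-shV, were 0.89, 0.34 and 0.38 when thinned to 5000 UMIs, 0.67, 0.59 and 1.06 with Cd3d, Cd3e and Cd3g alone, 0.76, 0.83 and 0.79 with another random draw, 0.29, 3.18 and 0.83 with acinar-rich spots included, and 0.48, 0.90 and 1.36 without Trbc1, an alternative chosen after seeing the data. For type I these were 0.0145, 0.17 and -0.24, then -0.0537, 0.29 and 0.11, then -0.0022 and 0.36 (KPC-shV stayed at -0.35), then -0.53, 2.23 and -0.27, and last -0.13, 0.48 and 0.17. No called list ratio, weighted ratio or T-rich over T-free ratio changed sign. Ratios within a T cell class were not among these. With acinar-rich spots included, the type II ratio in T-free spots was -1.68 (819 and 2624 CPM), where it was 0.73 without them. For single genes no called value changed sign, and 20 members were higher and 7 lower in all 8 alternatives. Nlrc5 was among the latter, with an interval that held 0 outside acinar-rich spots. The alternatives include the reading over all spots, where the median gene was at -0.48. No share of all genes keeping 1 direction was taken, so these counts are not read as a result. The cause of the changes between alternatives was not tested. Genes near the 0.563 to 2.46 CPM of the genes not expected in the tissue are limited by background. No paired analysis was possible because each group has 1 library and the labels give no replicate numbers.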
